A study of Mus musculus with 36 samples.

Results

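The 11 E12.5 gut libraries described here are the 5 labelled Ret null in which Ret RNA was below 1 FPKM and all 6 labelled wild type (WT), out of 36 libraries of embryonic mouse gut from E10.5 to E14.5. The null libraries were selected on the measured Ret value. FPKM is the number of fragments scaled to transcript length and library size. The null side holds females 1, 2 and 3 and males 1 and 3. The WT side holds 3 libraries labelled female and 3 labelled male. Per the labels, all embryos were of strain C57BL/6J and RNA came from dissected gut; no treatment is labelled. The sources used here give neither the kind of null allele, nor the gut regions taken, nor whether embryos were pooled. A sixth library labelled null, male 2, held Ret RNA at 6.12 FPKM. It was set aside by the rule and is given beside the results.

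Ret encodes the receptor tyrosine kinase that, with a GFRA co-receptor, binds GDNF secreted by gut mesenchyme. Neural crest cells from the hindbrain level enter the foregut, migrate along it and form the neurons and glia of the enteric nervous system, and this colonisation needs Ret. In mice without Ret the gut below the stomach lacks enteric ganglia, and in humans RET variants are a main cause of Hirschsprung disease.

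The authors' intervals around each value corresponded to an estimated 17500000 to 41000000 fragments in null libraries and 22900000 to 30900000 fragments in WT libraries. Between 12606 and 13142 genes reached 1 FPKM in the null libraries and 12618 to 12914 in WT. The libraries labelled WT female 1 and WT female 2 differed by 1.09 times the counting noise, against 1.95 to 3.33 times in the other E12.5 pairs of a group, and were averaged and counted as 1 sample. They also held both Xist (49.1 and 52.2 FPKM) and the Y-linked Ddx3y (4.91 and 4.98 FPKM), which goes against their female label. WT female 3 had 97.0 FPKM of Xist and 0.0133 FPKM of Ddx3y. Each group thus has n = 5 samples. No label states that each library is a different embryo, and p-values therefore cover only the variation among these samples, part of which may be technical. Gut epithelium genes summed to 363 to 537 FPKM in null and 326 to 478 FPKM in WT libraries. Markers of gut regions varied among libraries. Posterior Hox genes summed to 36.9 to 50.1 FPKM in null and 1.73 to 90.9 FPKM in WT libraries, and stomach genes to 238 to 312 FPKM in null and 88.7 to 408 FPKM in WT libraries. WT male 1 had the lowest posterior Hox sum and WT male 2 the highest. WT male 2 also had the lowest stomach sum, against 264 to 408 FPKM in the other WT libraries. Its pancreas genes summed to 2.41 FPKM, against 53.3 to 119 FPKM in those. The part of these differences in the fold changes was not tested.

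Ret (mm10 chr6:118151748-118197744) stood at 0.0263, 0.0451 and 0.0301 FPKM in null females 1, 2 and 3 and at 0.0218 and 0.0151 FPKM in null males 1 and 3. The 6 WT libraries held 8.89 to 13.3 FPKM. Because these values chose the libraries, they are a description and no test of Ret is given. Ret stayed in the fit and in the adjustment over all genes. Counts given with Ret thus hold a call that the selection fixed in advance. Male 2, the nearest library outside the limit of 1 FPKM, lay between the groups.

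In gut lacking Ret RNA, 33 genes besides Ret fell and none rose at the threshold. Among them are genes of crest progenitors and glia (Sox10, Foxd3, Sox8, Cdh19, Lgi4), of neuronal commitment (Mab21l1, Dlx1, Dlx2), of neurons (Elavl4, Ina, Tagln3, Chrna3, Chrnb4) and of neuropeptides (Cartpt, Cck, Gal), while 15 of the 33 stand in none of the gene lists used. The null means of the called genes were 6.84 to 65.1% of the WT mean (median 21.3%), leaving out Mir3096b, which was listed at 0 in every null library. With Ret, the falls are 0.259% of 13121 genes tested with limma at a Benjamini-Hochberg adjusted p under 0.05. In 32 of the 33 the null and WT libraries did not overlap. Of all genes tested, 1.28% lay wholly lower and 0.785% wholly higher in the null libraries. All 33 were lower in both sexes. The 33 were selected by a test on these same libraries, which favours such genes, so these counts only describe them. Among the rises the smallest adjusted p was 0.116, and 567 genes were higher at an unadjusted p under 0.05, beside 465 lower without Ret. In bulk gut, fewer cells of a type and less RNA per cell cannot be told apart. The number of genes called, Ret included, was 5 without null male 3, 7 without the libraries labelled WT female 1 and 2, 10 without WT female 3 and 66 without null female 1. Fold changes are on log2(FPKM + 1), which understates the change of genes near or below 1 FPKM.

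**Figure D1:**
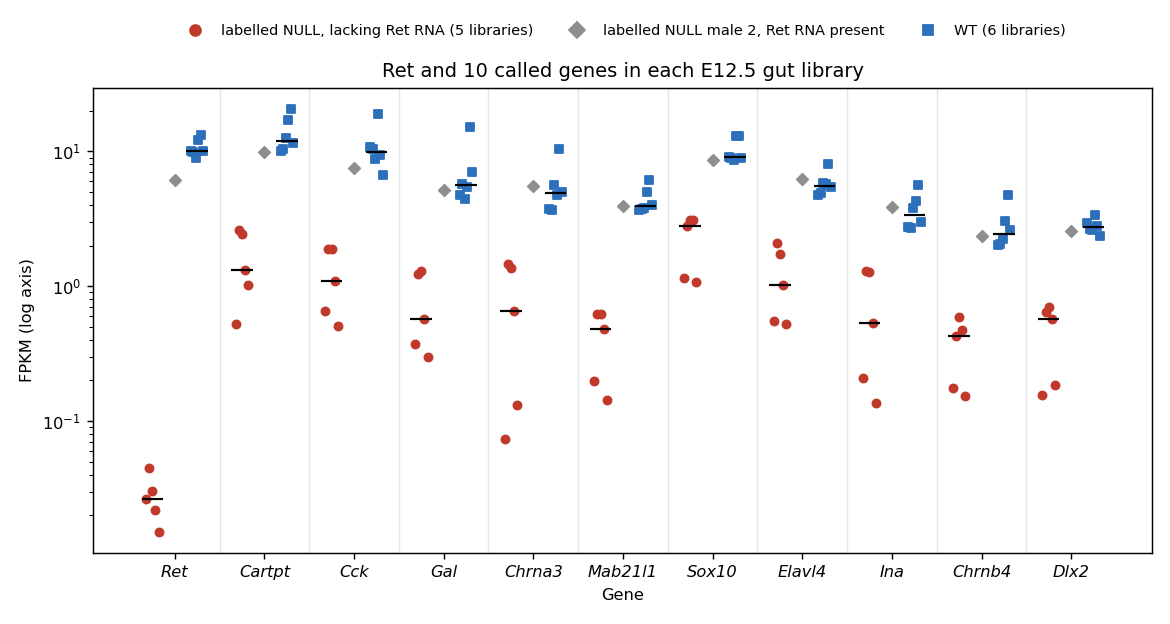
FPKM (log axis) of Ret and of 10 of the called genes with the largest fold changes, in each E12.5 library. Red circles are the 5 null libraries lacking Ret RNA, grey diamonds the library labelled NULL male 2, blue squares the 6 WT libraries and black lines medians; no red circle reaches a blue square of the same gene, and the grey diamond lies among or near the blue squares for every gene but Ret.

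The neuropeptide genes Cartpt and Cck had the largest log2 fold changes after Mir3096b, and Gal fell too. Cartpt, which encodes the CART prepropeptide (chr13:99898483-99900683), had 0.522, 2.63 and 2.42 FPKM in null females 1, 2 and 3 and 1.32 and 1.02 FPKM in null males 1 and 3, against 10.1 to 20.7 FPKM (median 12) in WT. The log2 fold change of Cartpt was -2.59 ± 0.26 (SE, adjusted p = 0.00741). Cck, the cholecystokinin gene (chr9:121489824-121495689), had 0.657, 1.90, 1.89, 1.09 and 0.511 FPKM in the same order, against 6.68 to 19.0 FPKM (median 9.98) in WT. The groups did not overlap, and the log2 fold change was -2.44 ± 0.28 (SE, adjusted p = 0.0121). Cck is also made by enteroendocrine cells of the epithelium. Of the 11 enteroendocrine genes tested it was the only one called. Gal, the galanin gene (chr19:3409917-3414457), had 0.374, 1.24, 1.29, 0.575 and 0.299 FPKM in null libraries, against 4.46 to 15.3 FPKM (median 5.62) in WT. Gal had a fold change in log2 of -2.17 ± 0.26 for null minus WT (SE, adjusted p = 0.0134). In all these genes null females 2 and 3 were the highest null libraries and still below the lowest WT library. Of the 7 neuropeptide genes tested, the other members did not pass. Penk, the proenkephalin gene, averaged 12 ± 3.4 FPKM in null and 14.3 ± 5.2 FPKM in WT samples (SD, n = 5 each).

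The pair of nicotinic acetylcholine receptor genes that forms the main autonomic ganglion receptor fell as well. Chrna3, the alpha 3 subunit (chr9:55011343-55026559), had 0.0735, 1.47 and 1.37 FPKM in null females 1, 2 and 3 and 0.650 and 0.132 FPKM in null males 1 and 3, against 3.67 to 10.4 FPKM (median 4.88) in WT. For Chrna3 the log2 fold change was -2.01 ± 0.30 (SE, adjusted p = 0.0439). Chrnb4, the beta 4 subunit (chr9:55028156-55048544), had 0.175, 0.425, 0.593, 0.472 and 0.154 FPKM in null libraries, against 2.03 to 4.74 FPKM (median 2.43) in WT. For Chrnb4 it was -1.46 ± 0.15 (SE, adjusted p = 0.00831). They were the only 2 called of 12 nicotinic receptor and transmitter genes tested. The 2 genes lie 1597 bases apart, and 7 of the 33 called genes had another called gene within 250 kb. The other such neighbours were Dlx1, Dlx1as and Dlx2, and Sox8 and Metrn, which lie 223900 bases apart. RefSeq promoters (250 bases before to 50 after the gene start, GRCm38.p6) are shown for the 2 neighbouring pairs of protein-coding genes that lie closest. Capitals mark the letters CAGCTG, an E-box of the kind that basic helix-loop-helix factors bind.
Chrna3 promoter (chr9:55026513-55026812, minus strand): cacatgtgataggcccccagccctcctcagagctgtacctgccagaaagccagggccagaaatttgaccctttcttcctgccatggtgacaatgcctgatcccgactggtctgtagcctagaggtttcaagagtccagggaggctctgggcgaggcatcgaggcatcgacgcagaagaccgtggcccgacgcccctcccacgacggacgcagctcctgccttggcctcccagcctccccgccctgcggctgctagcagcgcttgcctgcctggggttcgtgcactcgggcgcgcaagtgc
Chrnb4 promoter (chr9:55048495-55048794, minus strand): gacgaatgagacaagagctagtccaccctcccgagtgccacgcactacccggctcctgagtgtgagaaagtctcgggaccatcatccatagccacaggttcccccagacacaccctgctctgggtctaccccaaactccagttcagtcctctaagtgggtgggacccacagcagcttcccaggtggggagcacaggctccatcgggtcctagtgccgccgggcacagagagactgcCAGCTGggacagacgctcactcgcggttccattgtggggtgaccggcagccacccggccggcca
Dlx1 promoter (chr2:71529195-71529494, plus strand): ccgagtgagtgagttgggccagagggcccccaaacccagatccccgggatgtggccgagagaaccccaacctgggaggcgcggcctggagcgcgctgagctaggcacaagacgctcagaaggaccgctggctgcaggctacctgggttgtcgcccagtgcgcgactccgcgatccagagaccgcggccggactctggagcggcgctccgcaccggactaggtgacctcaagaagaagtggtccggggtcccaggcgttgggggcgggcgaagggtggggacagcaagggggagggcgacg
Dlx2 promoter (chr2:71546705-71547004, minus strand): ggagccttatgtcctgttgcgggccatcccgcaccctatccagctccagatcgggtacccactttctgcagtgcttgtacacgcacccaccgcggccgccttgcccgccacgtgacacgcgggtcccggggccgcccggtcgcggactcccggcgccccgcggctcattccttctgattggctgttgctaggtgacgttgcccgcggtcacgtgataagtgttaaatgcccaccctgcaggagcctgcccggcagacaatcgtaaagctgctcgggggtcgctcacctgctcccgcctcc

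Promoters were matched for 23 of the 33 called genes and searched on both strands for CAGCTG, for ACAAAG, which occurs in binding sites of Sox proteins, and for TAATTA, a core of homeodomain sites. CAGCTG stood in 4 of the 23 (17.4%), against 16.1% of 27025 RefSeq promoters of the same length. ACAAAG stood in 1 of the 23 (4.35%), against 18.7% of all. TAATTA stood in 1 of the 23 (4.35%), against 5.31% of all. In the promoters printed above, Chrnb4 held 1 CAGCTG and the others held none of the 3 strings, so no matches overlapped. A match describes the letters only.

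Some genes on the lists of enteric neurogenic transcription factors and of Dlx genes fell as well. Mab21l1, a developmental gene of the Mab21 family (chr3:55782510-55785287), had 0.200, 0.623 and 0.620 FPKM in null females 1, 2 and 3 and 0.478 and 0.143 FPKM in null males 1 and 3, against 3.70 to 6.16 FPKM (median 3.92) in WT. The fit gave Mab21l1 a fold change in log2 of -1.96 ± 0.14 for null minus WT (SE, adjusted p = 0.00201), the smallest adjusted p of the 33. Dlx1 and Dlx2, a linked pair of homeobox genes, were the only Dlx genes expressed highly enough to be tested, and both fell. Dlx1 (chr2:71529445-71533980) had 0.183 to 0.424 FPKM in null and 1.86 to 3.18 FPKM in WT libraries. Dlx2 (chr2:71543408-71546754) had 0.157 to 0.696 FPKM in null and 2.38 to 3.39 FPKM in WT libraries. The RNA Dlx1as, which overlaps Dlx1 on the opposite strand, had 0.132 to 0.447 FPKM in null and 1.58 to 2.18 FPKM in WT libraries. No source used here says that counting used strand, so reads of Dlx1 and Dlx1as cannot be told apart. Mab21l1 was among the 2 that fell of 23 genes tested on the list named enteric neurogenic transcription factors.

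Crest progenitor and glial genes fell in part. Sox10, the SoxE factor of crest cells and glia (chr15:79154913-79164490), had 1.15, 2.78 and 3.11 FPKM in null females 1, 2 and 3 and 3.11 and 1.1 FPKM in null males 1 and 3, against 8.64 to 13.1 FPKM (median 9.04) in WT. Sox10 had a fold change in log2 of -1.86 ± 0.24 for null minus WT (SE, adjusted p = 0.0198). Foxd3, a forkhead factor of early crest (chr4:99656299-99658671), had 0.258 to 0.615 FPKM in null and 2.08 to 3.32 FPKM in WT libraries, and its groups stood apart (log2 fold change -1.33 ± 0.11 SE, adjusted p = 0.00477). Sox8, another SoxE gene (chr17:25565893-25570686), had 0.646 to 1.54 FPKM in null and 3.41 to 4.58 FPKM in WT libraries (log2 fold change -1.14 ± 0.13 SE, adjusted p = 0.0121). These were the 3 of 14 crest progenitor genes that fell. Ednrb, the endothelin receptor of migrating crest, averaged 18.8 ± 3.8 FPKM in null and 29.3 ± 7.1 FPKM in WT samples (SD, n = 5 each), and its groups overlapped (adjusted p = 0.511). Among 11 glia and Schwann cell genes Cdh19, a cadherin of Schwann cell precursors, was the only one called, with 0.150 to 0.757 FPKM in null and 1.21 to 1.72 FPKM in WT libraries. Lgi4, which encodes a secreted glial protein, had 0.394 to 0.677 FPKM in null and 1.47 to 2.38 FPKM in WT libraries. Metrn encodes meteorin, a secreted protein described in glia and neural progenitors, and was the most abundant of the 33, with 20.6 to 26.4 FPKM in null and 32.4 to 47.8 FPKM in WT libraries. Erbb3, a neuregulin receptor, and Cnp, a myelin enzyme, lay wholly lower in null libraries and missed the threshold (adjusted p = 0.0676 for Erbb3 and 0.0646 for Cnp). Erbb3 averaged 4.16 ± 0.48 FPKM in null and 7.22 ± 1.32 FPKM in WT samples (SD, n = 5 each).

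Among genes of differentiated neurons, Elavl4, the HuD RNA-binding protein (chr4:110203737-110351911), had 0.556, 2.10, 1.74, 1.02 and 0.521 FPKM in null females 1, 2 and 3 and males 1 and 3, against 4.74 to 8.10 FPKM (median 5.57) in WT. Elavl4 had a fold change in log2 of -1.74 ± 0.20 for null minus WT (SE, adjusted p = 0.0127). Ina, the neurofilament protein alpha-internexin (chr19:47014698-47024346), had 0.207, 1.30, 1.27, 0.536 and 0.136 FPKM in null libraries, against 2.71 to 5.67 FPKM (median 3.40) in WT. For Ina it was -1.59 ± 0.23 (SE, adjusted p = 0.036). Tagln3, a neuronal calponin-family protein, had 5.74 to 6.74 FPKM in null and 11.0 to 16.2 FPKM in WT libraries (log2 fold change -0.89 ± 0.08 SE, adjusted p = 0.00722). All 22 neuronal cytoskeleton genes tested had a lower estimate in null samples, with a median log2 difference of -0.79 against 0.01 over all genes, and Ina and Tagln3 passed the test. In 10 of the 22 the libraries did not overlap. Tubb3, the neuronal beta tubulin, is one of them and was chosen after its values were seen. It had 1.22, 10.1, 12.4, 5.59 and 0.593 FPKM in the null libraries, against 21.3 to 44.2 FPKM (median 26.4) in WT. Its log2 difference was -2.67 ± 0.57 (SE, adjusted p = 0.21). Gap43, a growth cone protein, averaged 18.5 ± 6.5 FPKM in null and 39.9 ± 3.7 FPKM in WT samples (SD, n = 5 each) and missed the threshold (adjusted p = 0.0925). In the list of 8 neuronal RNA-binding protein genes Elavl4 was the only one called.

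Adhesion and signalling genes made up much of the rest, with smaller log2 fold changes. Chl1 and Nrcam, adhesion molecules of the L1 family, were the 2 called of 15 axon guidance and neural adhesion genes. Chl1 had 0.159 to 0.413 FPKM in null and 0.987 to 1.27 FPKM in WT libraries, and Nrcam 0.309 to 0.519 FPKM in null and 0.959 to 1.18 FPKM in WT libraries. Cadm1, an immunoglobulin-family adhesion molecule of synapses and other contacts, averaged 10.6 ± 0.3 FPKM in null and 17.7 ± 1.6 FPKM in WT samples (SD, n = 5 each). Nell2, a secreted neural glycoprotein, averaged 5.24 ± 0.84 FPKM in null and 10.7 ± 1.5 FPKM in WT samples. Camk2b, a subunit of calcium/calmodulin-dependent kinase II, had 0.57 to 0.792 FPKM in null and 1.5 to 2.50 FPKM in WT libraries. Camkv, a kinase-like protein of neurons, had 1.23 to 1.52 FPKM in null and 2.41 to 2.96 FPKM in WT libraries. Fgf13, an intracellular partner of sodium channels, Kif21a, a kinesin, Mllt11, Fbxo44, an F-box protein, and Car12, a carbonic anhydrase, had null means of 43.2 to 65.1% of the WT mean. Fam184b stood at 18.9% and the unannotated transcript A930011O12Rik at 6.84% of the WT mean. A930011O12Rik had 0.0112 to 0.172 FPKM in null and 0.599 to 1.62 FPKM in WT libraries, so its log2 fold change of -0.94 ± 0.10 (SE) is small only on the log2(FPKM + 1) scale. This transcript reached 1 FPKM only in WT males 1, 2 and 3 and was tested through these libraries alone.

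**Figure D2:**
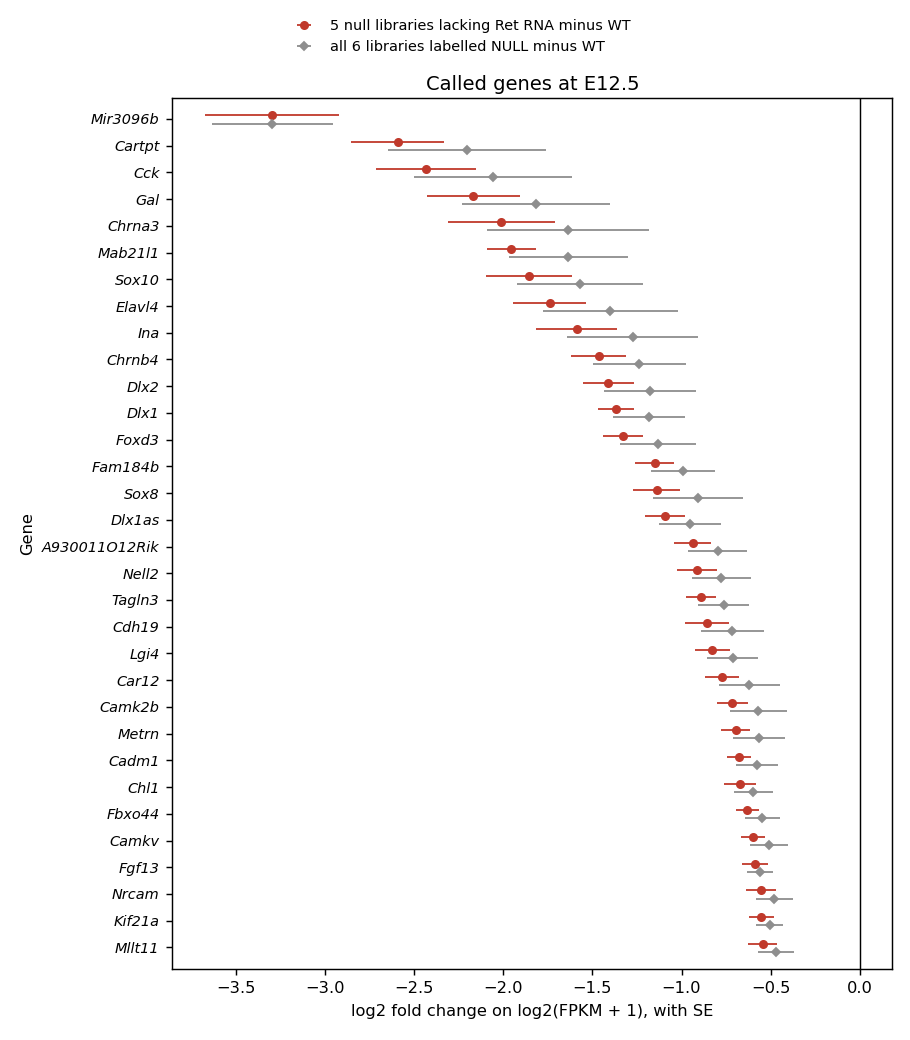
log2 fold change on log2(FPKM + 1) with its SE for 32 of the called genes. Red circles give the 5 null libraries lacking Ret RNA minus WT and grey diamonds all 6 libraries labelled NULL minus WT; every point lies below 0, and for every gene but Mir3096b the grey point lies nearer 0.

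Mir3096b had the largest fitted difference of the 33. The entry is 91 bases long (chr5:23852201-23852291) and overlaps the small nucleolar RNA Snord93 and the long non-coding RNAs Gm42228 and 2700038G22Rik in RefSeq. It was listed at 0 in all 5 null libraries and in the library labelled NULL male 2. WT libraries had 0, 6.75, 17.9, 8.80, 15.3 and 6.52 FPKM. The authors' interval reached down to 0 in all 36 libraries, and only 7 of the 36 were above 0. Reads of this entry and of the overlapping RNAs cannot be told apart.

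The null libraries differed among themselves in some of these genes and hardly in others. In 11 called genes the coefficient of variation over the null samples was under 20%, and these kept 37.8 to 65.1% of the WT mean. They were Cadm1, Fbxo44, Tagln3, Kif21a, Car12, Camkv, Metrn, Mllt11, Fgf13, Camk2b and Nell2. The other 21 with a value kept 6.84 to 39.6% of the WT mean. This limit was chosen after the values were seen. The called genes were selected by a test on these same values, in which a small fall passes only with a small spread. The split is thus in part built in by the selection. Null female 1 and null male 3 were the 2 lowest null libraries for 24 of the 33 called genes (72.7%), against 18.9% of all genes tested. In these 2 libraries Chrna3 was at 0.0735 and 0.132 FPKM.

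The same 2 null libraries were also lowest for many genes outside the enteric lineage. They were the 2 lowest in 13 of 15 sympathetic and adrenal medulla genes, 16 of 16 endothelium genes, 15 of 16 macrophage genes and 10 of 13 genes of mesonephros, gonad and adrenal cortex. They were the 2 highest in 11 of 14 anterior Hox genes. The same held for 12 of 18 gut mesenchyme, 7 of 12 hedgehog pathway, 11 of 23 gut epithelium and 6 of 12 stomach genes. In those other lists, in that order, they were the 2 lowest in 4, 1, 3 and 3 genes. Of all genes tested, they were the 2 lowest in 18.9% and the 2 highest in 16.1%. The sympathetic and adrenal medulla list summed to 94.8, 258 and 283 FPKM in null females 1, 2 and 3 and to 159 and 77.8 FPKM in null males 1 and 3, against 115 to 193 FPKM in WT libraries. Dbh, the noradrenaline-making enzyme, had 0.308, 27.8, 32.7, 12.3 and 0.0756 FPKM in the null libraries, against 3.97 to 17.4 FPKM in WT. Th, tyrosine hydroxylase, had 0.381, 18.1, 19.8, 8.48 and 0.268 FPKM in null, against 0.645 to 9.87 FPKM in WT. Chgb, named after its values were seen and encoding a granin of chromaffin cells and sympathetic neurons, had 1.19, 56.8, 63.1, 18.2 and 1.53 FPKM in null, against 0.740 to 23.1 FPKM in WT. Of the 17 genes on that list none was below 0.1 FPKM in every library, and 0 of 15 tested were called. Sympathetic cells share Chrna3, Tubb3 and Ina with enteric neurons, and the part of these cells in the null values of such genes was not tested. In null female 1 and null male 3, where Dbh and Th were below 0.4 FPKM, Chrna3, Tubb3 and Ina were also at their lowest.

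**Figure D3:**
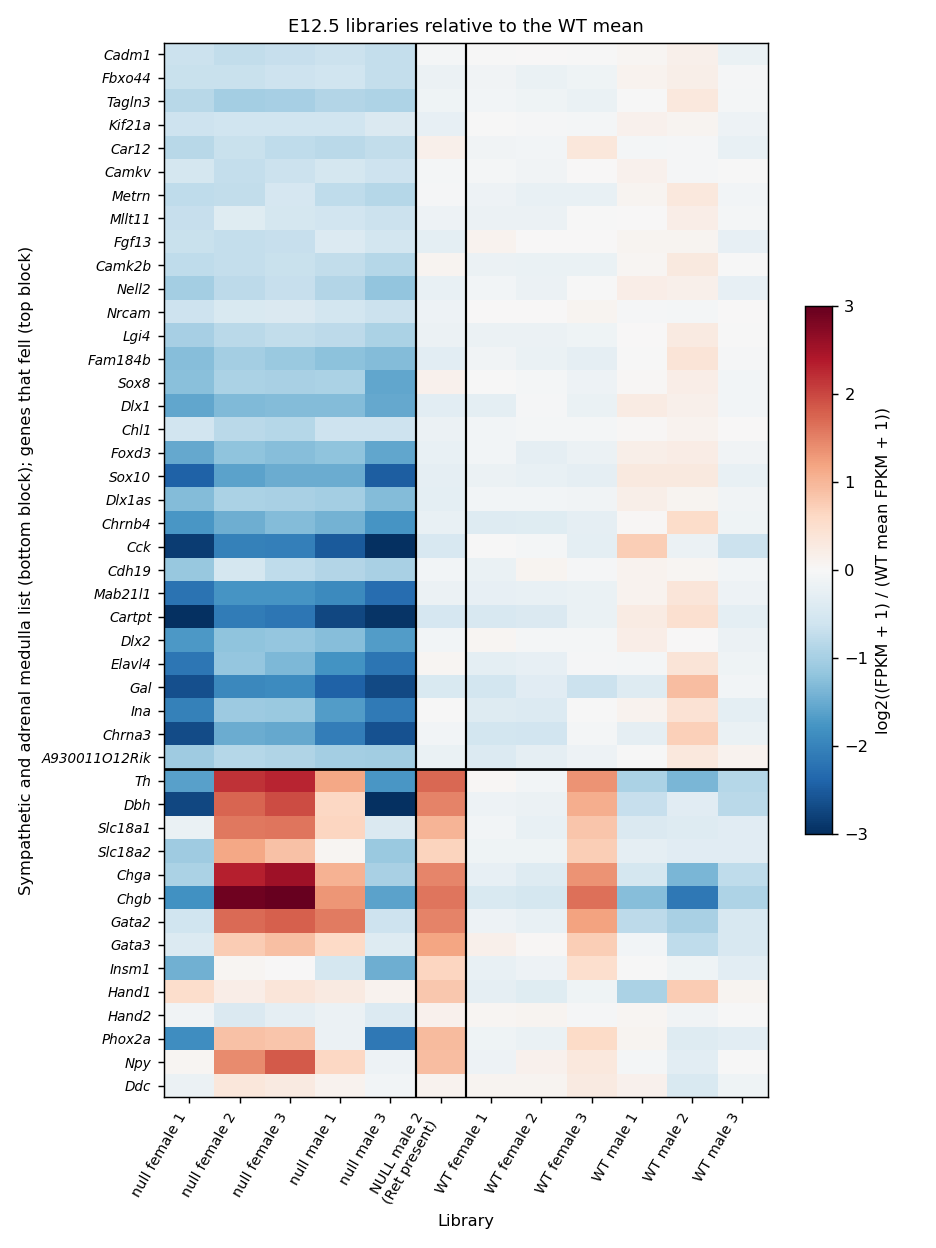
Each E12.5 library relative to the WT mean, as log2((FPKM + 1) / (WT mean FPKM + 1)), blue lower and red higher, with colours cut at -3 and 3. The upper block holds 31 of the called genes, ordered by their variation among null libraries, and is blue in all 5 null columns; the lower block holds 14 of the tested sympathetic and adrenal medulla genes, where null females 2 and 3 are mostly red and null female 1 and male 3 mostly blue.

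Over the 14 lists of the enteric nervous system, 18 of 161 genes tested fell and none rose, with a median log2 difference of -0.19, where 0.259% of all genes tested fell. The 18 came to 3 without the libraries labelled WT female 1 and 2, 4 without null male 3, 4 without WT female 3, 11 without WT male 1, 11 without WT male 2 and 0 with all 6 libraries labelled null. In 37 of the 161 the null libraries lay wholly lower and in 1 wholly higher, against 1.28% and 0.785% of all genes tested. Over the genes that stand only in the 24 lists of other tissues, pathways and cell states, none of 271 was called. Their median was 0.12, and the median over all genes tested was 0.01. The other 15 called genes stand in no list. The lists were drawn up with earlier results of these data known, so these counts describe them only. Some parts of the enteric system showed no call. None of the 7 other genes of the Ret receptor complex was called. Gfra1, the GDNF co-receptor, had 28.1, 13.4, 12.8, 23.2 and 32.6 FPKM in the null libraries, against 26.5 to 33.9 FPKM in WT, with null females 2 and 3 the lowest. Gdnf, the mesenchymal ligand, averaged 9.74 ± 2.40 FPKM in null and 9.43 ± 3.19 FPKM in WT samples (SD, n = 5 each). None of 5 endothelin pathway genes, 23 secretory granule and synaptic release genes and 6 voltage-gated ion channel genes was called. With 0.259% of all genes called, the lack of a call says little for lists of this size. Of the 23 secretory granule and release genes, 4 lay wholly lower in null libraries, against 1.28% of all genes tested. None of the endothelin and ion channel genes did. Of 15 genes linked to Hirschsprung disease and crest migration, Sox10 fell. Ntn1, a guidance cue made by gut epithelium, was the 1 enteric-list gene that lay wholly higher, with 9.08 to 12.51 FPKM in null and 7.03 to 8.88 FPKM in WT libraries (adjusted p = 0.342).

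**Figure D4:**
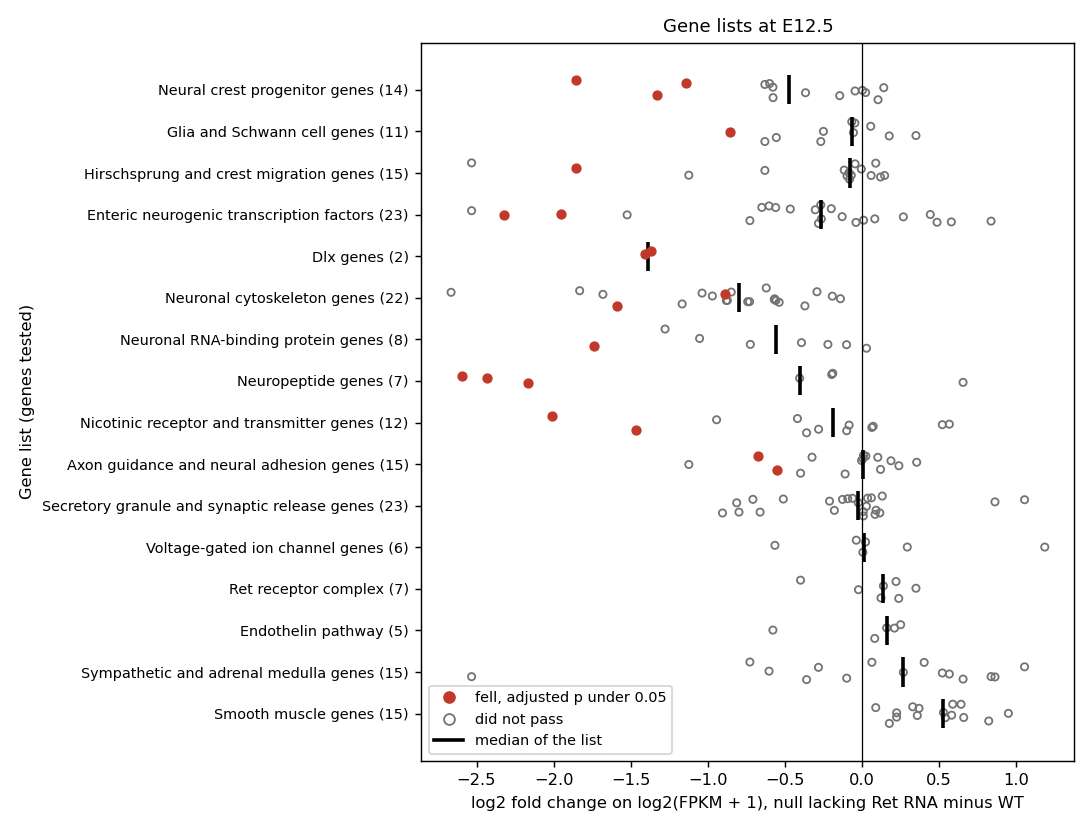
log2 fold change on log2(FPKM + 1), null lacking Ret RNA minus WT, of each tested gene of 16 lists, with the number tested in brackets. Filled red points fell at an adjusted p under 0.05, open points did not pass and black bars are list medians; the red points all lie below -0.5, and the neuronal cytoskeleton list lies wholly below 0.

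No gene passed the test for a rise as fitted. There were 100 rises with the replicate block and every library counted, and 17 without null female 1. The count was 3 with every library counted, 2 without a sex term, 2 with array weights, 1 with no filter and 1 without WT male 2. The 8 rises with the smallest unadjusted p all missed the threshold. They were led by Col15a1, a basement membrane collagen, with 11.1 to 12.8 FPKM in null and 8.98 to 10.4 FPKM in WT libraries (log2 difference 0.31 ± 0.06 SE, adjusted p = 0.116). Mertk, a phagocyte receptor kinase, had 4.38 to 5.21 FPKM in null and 3.45 to 3.88 FPKM in WT libraries. Emilin1, an elastic fibre glycoprotein, had 66.6 to 78.3 FPKM in null and 54.8 to 62.1 FPKM in WT libraries. In these 3 genes the libraries did not overlap. The other 5, Fgfbp3, Rps4y2, Slco2a1, Arhgap27 and Ccdc102a, had log2 differences of 0.23 to 0.40 and adjusted p-values of 0.186 to 0.276. Genes within 10 Mb of Ret, where a targeted allele can carry flanking sequence, gave no call among 137 tested, with a median log2 difference of 0.00 and a smallest adjusted p of 0.12. In 3 of them the null libraries lay wholly lower and in 2 wholly higher, against 1.28% and 0.785% of all genes tested. The called gene Chl1 (chr6:103510876-103733035) lies outside this window, about 14420000 bases from Ret.

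With all 6 libraries labelled null, the count of called genes was 1 (Mir3096b), which is 0.00759% of 13182 tested. All 33 genes kept a lower estimate, with adjusted p-values of 0.0389 to 0.508 and unadjusted p-values under 0.05. The library labelled NULL male 2, which held Ret RNA, lay within the WT range alone for 24 of the 33 genes, within both ranges for 1 (Mir3096b) and between the groups for 8. Of all genes tested, 67.3% had it within the WT range, those within both ranges included. Such a position was thus common among all genes. Its Sox10 was 8.65 FPKM and its Tubb3 28.3 FPKM. Its Cartpt, at 9.88 FPKM, and its Dlx1, at 1.84 FPKM, lay just below the WT libraries. Its summed sympathetic and adrenal medulla genes, at 233 FPKM, lay above all WT libraries.

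Each sex was a contrast within the fit of both sexes, so the spread it was tested against came from samples of both. Within males (null males 1 and 3 against 3 WT), 14 of the 33 genes fell. With Ret, they make up the 0.114% of all genes called lower in males. They include Mab21l1, Dlx1, Dlx2, Foxd3, Cartpt, Gal, Chrnb4, Tagln3 and Metrn. Within females no gene but Ret was called (0.00762% of genes), while 912 others had an unadjusted p under 0.05. The difference between the sexes was tested as an interaction, and 0 genes were called, with 169 at an unadjusted p under 0.05. Female and male estimates are therefore not shown to differ. Among males the count with Ret was 1 without null male 3, 1 without WT male 1 and 31 without null female 1. It was 2 without null female 2, 2 without null female 3 and 4 without null male 1. Leaving out WT samples gave 3 without the libraries labelled WT female 1 and 2, 3 without WT female 3, 3 without WT male 2 and 12 without WT male 3. Among females the count was 61 without null female 1. The female estimates rest on WT female 3 and the pair labelled WT female 1 and 2.

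At E14.5, in other libraries, 22 of the 31 genes that could be tested fell as well (4.65% of all genes were called lower there and 3.96% higher, 8.61% together), and all 31 had a lower estimate. This set 3 null libraries lacking Ret RNA, at an estimated 6190000 to 7470000 fragments, against 6 WT libraries, at 4880000 to 6790000 fragments. Null males 2 and 3 at E14.5 differed by only 1.05 times the counting noise. They were counted separately because 1.6% of genes lay beyond 3 SD, over the limit of 1%. The 1182 genes called at E14.5 came to 51 without null male 2, 54 without null male 3, 356 without WT male 3, 480 without WT female 2, 537 without WT female 1 and 2009 without WT female 3. With all 6 libraries labelled null at E14.5, 3 of them with Ret RNA, none of the 31 was called lower, against 4.84% of all genes. Tubb3, which missed the threshold at E12.5, had 0.786 to 4.54 FPKM in null and 20.1 to 59.1 FPKM in WT libraries at E14.5 (adjusted p = 0.0032). The 9 genes not called at E14.5 were Cck, Mab21l1, Dlx2, Nell2, Lgi4, Car12, Chl1, Nrcam and Kif21a.

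The change in the difference between stages was called for 6 of the 33 genes, and for 18.0% of all genes (7.3% lower and 10.7% higher at E14.5), so this share is near the background. Ina, Tagln3 and Cadm1 had a larger fall at E14.5. Tagln3 averaged 6.22 FPKM in null and 12.8 FPKM in WT samples at E12.5, and 2.17 FPKM in null and 12.2 FPKM in WT libraries at E14.5 (interaction -1.04 ± 0.26 SE, adjusted p = 0.0132). Cck and Mab21l1 had a smaller one, and Mir3096b was above 0 in null male 2 alone at E14.5. Cck averaged 1.37 FPKM in null and 2.98 FPKM in WT libraries at E14.5 (interaction 1.78 ± 0.54 SE, adjusted p = 0.0316). For Mab21l1 the E14.5 null libraries spread over 0.0927 to 12.8 FPKM, against 2.04 to 7.2 FPKM in WT, with 1 null library above all WT libraries. At E10.5 the comparison was possible in males only, because all 3 females labelled null held Ret RNA. It set 3 null libraries against WT male 5 and the average of WT males 3 and 4, which differed by 0.942 times the counting noise. The spread used for it came from the fit over all stages and both sexes. The library labelled E10.5 null male 1 had 66.05 FPKM of Xist and none of Ddx3y. In males 31 of the 33 genes had a lower estimate, and Cartpt, Gal, Metrn and Fbxo44 fell (0.14% of all genes were called lower and 0.26% higher). The difference between E12.5 and E10.5 in males was called for none of the 33, and for 1 gene overall (0.00702%).

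**Figure D5:**
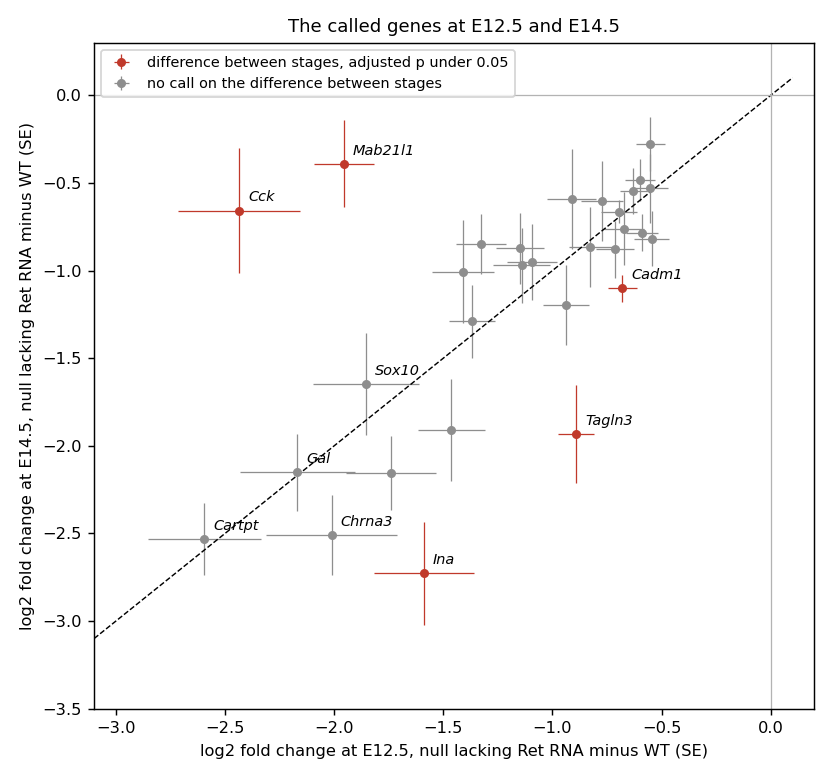
log2 fold change on log2(FPKM + 1), null lacking Ret RNA minus WT, at E12.5 (horizontal axis) and E14.5 (vertical axis) with SE bars, for 30 of the called genes tested at both stages. Red points have an adjusted p under 0.05 for the difference between stages and the dashed line marks equal values; Cck and Mab21l1 lie above the line and Ina, Tagln3 and Cadm1 below it.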

How the data were processed

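Per the labels, guts were dissected, mRNA was purified with oligo dT, and TruSeq libraries were sequenced from both ends. The authors deposited 1 FPKM value per gene entry and library with a lower and an upper bound, in 23847 entries, per the file headers. The submitters' processing notes name Picard, TopHat2, Cufflinks, Cuffdiff and mm10. Versions, settings and strand handling: not given in the sources used here. Starts equalled RefSeq starts for 12098 of 21330 genes when counted from 0 and are printed counted from 1.

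Libraries were grouped by title and by the Ret limit of 1 FPKM. The members and gene lists were chosen with earlier results of these data known. Genes needed 1 FPKM in 3 samples and an OK status in all libraries. Called genes below 1 FPKM in every null library, Chl1, Nrcam, Cdh19, Foxd3, Dlx1 and Dlx2 among them, met this through WT samples alone. All genes that met it were tested in limma 3.58.1 (R 4.3.3) after log2(FPKM + 1), with a mean-variance trend, genotype-by-sex means, a null minus WT contrast averaged over sexes, and Benjamini-Hochberg adjustment over all genes, two-sided. FPKM are not counts, so fragment numbers are estimates from the authors' interval widths. The libraries labelled E12.5 WT female 1 and 2 were averaged, because their spread was at most 1.1 times the noise with at most 1% of genes beyond 3 SD. By the same rule, WT males 3 and 4 and WT females 1 and 2 were averaged at E10.5. This departs from the planned design, which counted every library. The fit was tested on simulated data.

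Genes named are Ret, all called genes, the 8 strongest rises, up to 4 other abundant members of each enteric list and up to 3 members with the smallest p of each other list. Some genes that meet this rule are not reported here. Tubb3, Erbb3, Ntn1 and Chgb were chosen after their values were seen. Alternatives changed the pseudocount, filter, scaling, weighting, sex term, replicate block or set of libraries, or left out each sample. The alternatives for E14.5 and for the groups as labelled were chosen after seeing the data. Tables and plots came from Python 3.11.15 with numpy 2.4.6 and pandas 2.3.3, and from matplotlib 3.10.9.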

Additional observations from a re-analysis of the deposited data

Results flagged for a closer look

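In 6 of 99 sets of 5 samples checked among the named genes, the highest or lowest sample stood far from the others of its group. Chance alone flags about 1 in 20 such sets. Kif21a in null male 3 was 3.46 FPKM against 2.95 to 3.04 FPKM in the other null samples, and Mertk in null male 3 was 5.21 FPKM against 4.38 to 4.48 FPKM. In WT, Gal in male 2 was 15.3 FPKM against 4.46 to 7.04 FPKM in the others, Car12 in female 3 was 3.53 FPKM against 2.07 to 2.47 FPKM, Fgf13 in male 3 was 5.27 FPKM against 6.44 to 6.80 FPKM, and Ccdc102a in male 2 was 12.8 FPKM against 11.0 to 11.4 FPKM.

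The null minus WT difference was not the same at E14.5 as at E12.5 for 6 called genes by the interaction test in limma. The change in log2 fold change was 4.72 for Mir3096b, 1.78 for Cck and 1.56 for Mab21l1, and -1.14 for Ina, -1.04 for Tagln3 and -0.42 for Cadm1. Mir3096b was above 0 in 1 null library and in no WT library at E14.5.

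Ret RNA stood at 6.12 FPKM in the library labelled NULL male 2, which no comparison of null gut lacking Ret uses.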

How the results depend on the processing

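The 34 genes called at E12.5, Ret included, came to 1 with all 6 libraries labelled null, 65 with every library counted, 58 without a sex term, 11 with a mean FPKM of at least 5 and 53 with array weights. The replicate block with every library counted gave 182 (82 lower, 100 higher). Deviations of null and WT libraries of the same number from their group means correlated at -0.25 to 0.37 over 5 pairs. Each group mean rests on few libraries, so these values cannot decide whether the numbers pair samples. Leaving out 1 sample gave 5 to 66, with 7 without the libraries labelled WT female 1 and 2. With libraries as labelled, the 1 call came to 0 to 34, and to 2 without that WT pair. The 18 enteric list members that fell came to 0 with all 6 labelled null, 11 with pseudocount 0.1, 5 with a mean FPKM of at least 5, 29 with the replicate block, and 3 to 24 with 1 sample left out (4 without null male 3).

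Within females the 1 call was Ret, whose values chose the libraries. The count came to 0 with all 6 labelled null, 14 with every library counted, 2 with pseudocount 0.1, 2 without a filter and 4 with quantile normalization. It came to 3 without the WT pair, and to 1 to 61 with 1 sample left out. Within males the 15 came to 0, 26, 8, 7 and 26 under the same 5 settings, 1 with a mean FPKM of at least 5, 29 with array weights, 3 without the WT pair, and 1 to 31. The sex interaction gave 0 to 3, and 1 without the WT pair. The stage interaction with E14.5, 2560, gave 1449 to 3175. That with E10.5, 1, gave 55 without a sex term, 0 with pseudocount 0.1 and 1 to 6 with 1 sample left out. The 1182 calls at E14.5 came to 2491 without a sex term, 2175 with all 6 labelled null and 51 to 2009 with 1 sample left out. Without E14.5 null female 2 that contrast could not be fitted. The causes were not tested.

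Of 1044 recomputed values of 49 named genes, 0 reversed, 190 lost a call and 36 gained one. None of the 33 called genes kept its call in every alternative. Estimated depth was 4880000 to 7470000 fragments at E14.5 and 17500000 to 41000000 at E12.5, and its part in the stage differences was not tested.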

Other observations

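Several groups of genes of the gut wall and neighbouring tissues had estimates on 1 side with no gene called. All 15 smooth muscle genes tested had a higher estimate in null samples, with a median log2 difference of 0.53. Their summed FPKM was 1186 to 1733 in null and 755 to 1598 in WT libraries. The overlap came from WT male 2 alone (1598 FPKM), while the other WT libraries had 755 to 1002 FPKM. Smtn, the smoothelin gene of contractile smooth muscle, averaged 24.1 ± 1.8 FPKM in null and 19.2 ± 3.4 FPKM in WT samples (SD, n = 5 each). All 16 endothelium genes had a higher estimate (median 0.25), and Robo4, an endothelial guidance receptor, lay wholly higher with 5.88 to 7.02 FPKM in null and 4.87 to 5.64 FPKM in WT libraries (adjusted p = 0.321). All 15 liver genes did too (median 0.57), with sums of 137 to 1260 FPKM in null and 93.8 to 466 FPKM in WT libraries. Null females 2 and 3 stood apart at 1260 and 1220 FPKM, and the other 3 null libraries, at 137 to 290.3 FPKM, lay inside the WT range. The adult globin gene Hbb-b1 had 109 to 1170 FPKM in null and 37.2 to 301 FPKM in WT libraries.

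Anpep, a brush border aminopeptidase, lay wholly higher with 6.64 to 12 FPKM in null and 5.13 to 5.91 FPKM in WT libraries (adjusted p = 0.38). Of 14 anterior Hox genes tested, 12 had a lower estimate in null samples, Hoxb5 with 8.79 ± 1.80 FPKM in null and 13.8 ± 1.9 FPKM in WT samples (SD, n = 5 each, adjusted p = 0.258). None of 20 cell cycle genes was called, and their summed FPKM was 1233 to 1367 in null and 1247 to 1421 in WT libraries.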
